A study of Homo sapiens with 6 samples.

Results

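Lysosomal hydrolases, cathepsins and membrane proteins were examined as a set of 45 named genes, chosen by symbol, in 2 human glioblastoma cell lines. Of the 45 genes, 44 had a probe set of their own among the 11963 genes measured, and GLB1, which shares its probe set with TMPPE, was left out. Where a gene had several probe sets, the brightest one on average stood for it. Total RNA from T98G and from U87MG was hybridised to 3 Affymetrix arrays per line. The labels give both lines the same serum-containing medium, and name no treatment, transgene or selection for any array. They describe T98G as sensitive to apoptosis caused by the proteasome inhibitor bortezomib and by the isopeptidase inhibitor G5, with some protection from the necrosis G5 causes. U87MG is described as the reverse, withstanding apoptosis but sensitive to that necrosis, and the comparison asked which lysosomal transcripts differed between the lines. Each line is a long-cultured tumour line without the other cells of a brain.

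The lysosome is an acidic organelle that takes apart proteins, glycans, lipids and nucleic acids delivered by endocytosis and autophagy. Cathepsins and other acid proteases digest proteins, glycosidases and sulfatases strip sugars and sulfate groups in turn, and lipid hydrolases work with helper proteins that present their substrates. Cystatins in the cytosol and outside the cell block cysteine cathepsins, so that enzyme escaping from a damaged lysosome is held in check. The transcription factor TFEB and its relatives activate many lysosomal genes through a palindromic site known as the CLEAR element, and inherited loss of single hydrolases causes the lysosomal storage diseases.

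Promoter windows are shown first for the genes in which the core of the CLEAR element was found. The 2 of them that were called, GAA and MCOLN1, went in opposite directions between the lines. RefSeq windows of GRCh38.p14, from 250 bases before to 50 after a gene's start, were matched for 31 of the 45 genes. The 8 letters TCACGTGA, the same on both strands, occurred in the windows of 5 of the 31 genes (16.1%), namely CLN3, CTSA, GAA, LAMP1 and MCOLN1. They occurred in 1.18% of 27305 genes with a window, and in 1.99% of the 9563 such genes measured on the arrays. The shorter CACGTG, which lies inside it, occurred in 10 of the 31 (32.3%) against 8.77% of all genes and 12% of those on the arrays. The same letters with G before and C after occurred in 2, GAA and MCOLN1. Below are the 250 upstream bases on the plus strand for 4 of the 5 genes, with each TCACGTGA in capitals.
GAA, chr17:80101331-80101580: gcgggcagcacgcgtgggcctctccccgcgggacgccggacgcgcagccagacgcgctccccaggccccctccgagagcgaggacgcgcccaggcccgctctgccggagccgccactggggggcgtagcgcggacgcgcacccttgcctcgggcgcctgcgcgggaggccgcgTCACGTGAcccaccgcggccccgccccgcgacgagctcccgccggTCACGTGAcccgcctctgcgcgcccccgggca
MCOLN1, chr19:7522374-7522623: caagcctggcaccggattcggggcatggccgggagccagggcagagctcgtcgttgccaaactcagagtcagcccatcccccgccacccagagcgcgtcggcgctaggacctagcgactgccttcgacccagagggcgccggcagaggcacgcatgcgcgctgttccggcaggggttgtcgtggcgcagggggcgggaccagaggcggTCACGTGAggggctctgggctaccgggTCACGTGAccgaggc
CTSA, chr20:45891085-45891334: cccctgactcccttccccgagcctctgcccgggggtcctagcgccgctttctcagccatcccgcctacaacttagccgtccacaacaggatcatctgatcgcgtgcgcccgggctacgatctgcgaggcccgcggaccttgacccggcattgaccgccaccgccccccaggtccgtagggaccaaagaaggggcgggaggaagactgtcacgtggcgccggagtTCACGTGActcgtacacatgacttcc
LAMP1, chr13:113296989-113297238: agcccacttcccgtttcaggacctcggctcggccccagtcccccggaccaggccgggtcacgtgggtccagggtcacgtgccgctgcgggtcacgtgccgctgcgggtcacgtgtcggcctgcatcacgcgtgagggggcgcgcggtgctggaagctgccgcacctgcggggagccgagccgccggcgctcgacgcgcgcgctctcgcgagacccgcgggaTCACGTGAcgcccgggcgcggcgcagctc
The site lay 77 and 32 bases before the annotated start of GAA and 42 and 15 before that of MCOLN1. It lay 26 bases before the start of CTSA and 29 before that of LAMP1, whose upstream bases hold 5 copies of CACGTG. The LAMP1 window holds a second TCACGTGA that begins 2 bases before the start and runs across it, so the bases shown cut it off. These matches describe letters in a window and not a bound factor.

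Among the 44 genes, 8 were higher in U87MG, 3 were lower and 33 were not called, where a call needed a limma adjusted p under 0.05 and at least a 2-fold difference. The higher genes were CTSK, CTSL, IDS, ASAH1, MCOLN1, SMPD1, TPP1 and NPC1, and the lower were CTSH, GAA and FUCA1. Across all 11963 genes, 13.6% were called, 6.56% higher and 7.01% lower, so that 25% of the lysosomal genes stood beside 13.6%. Another 8 genes were higher and 7 lower at an adjusted p under 0.05 without reaching 2-fold. By adjusted p alone 16 were higher and 10 lower, against 19.7% and 21.7% of all genes and 41.3% in either direction. At an unadjusted p under 0.05 there were 32 of the 44, against 47.8% of all genes. No test of a group as a whole was run, and the counts by role below describe small groups. The arrays of the lines did not overlap for 31 of the 44, against 52% of all genes. Of the 31, 19 were higher and 12 lower in U87MG, beside 24.5% and 27.6% of all genes. The median log2 difference, U87MG minus T98G, was 0.04 over the 44 and -0.01 over all genes. The median size of the difference regardless of sign was 0.52 for the set and 0.26 for all genes. The set therefore held many differences of both signs around a middle near 0. In RNA from whole cultures, fewer cells expressing a gene and less RNA per cell cannot be told apart.

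**Figure D1:**
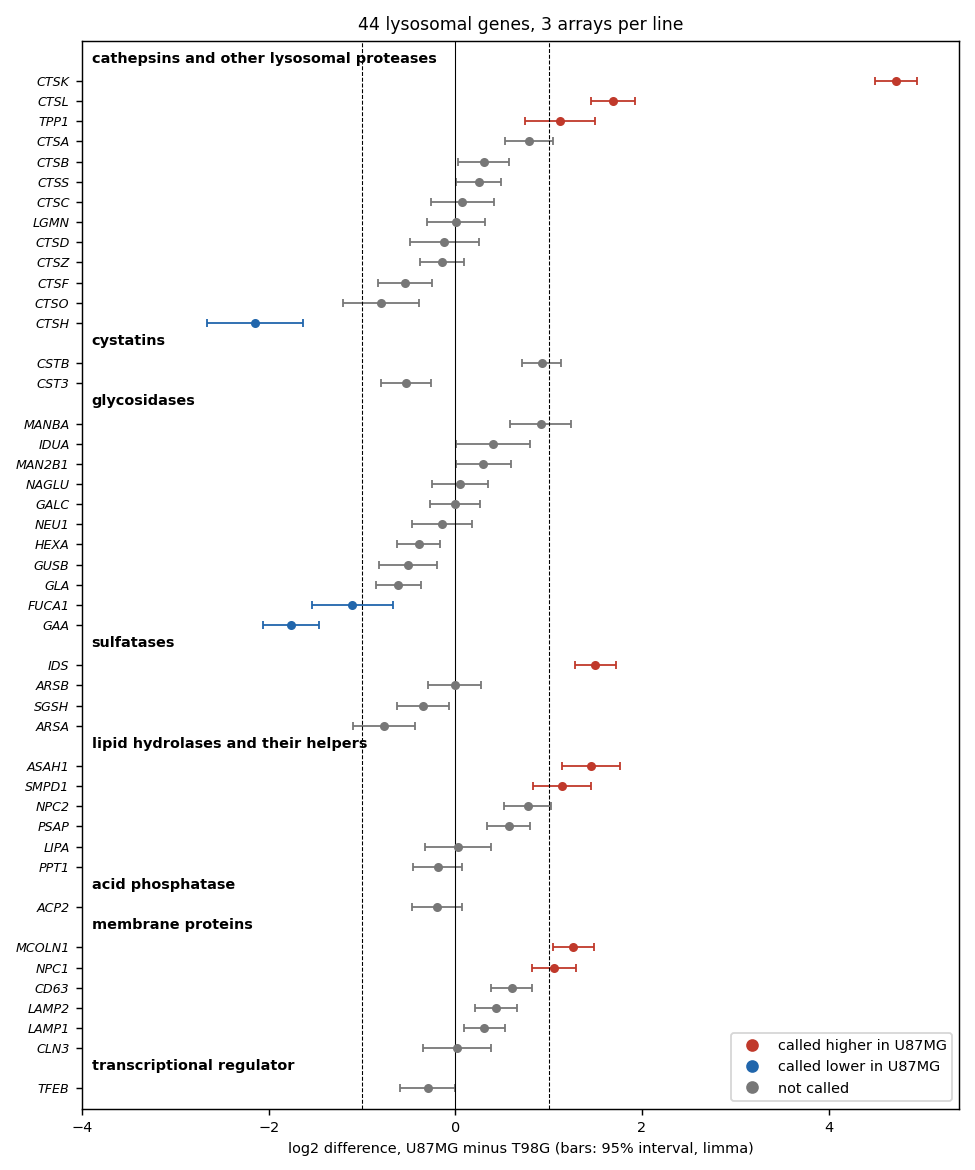
Log2 differences (U87MG minus T98G) of the 44 lysosomal genes, grouped by the role of the product, with 95% intervals from limma and dashed lines at a 2-fold difference. CTSK lies at 4.72, far beyond the others, the called membrane and lipid genes lie to the right and the called glycosidases GAA and FUCA1 to the left.

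Checks that touch the whole series were few. Arrays of 1 line correlated at 0.990 to 0.997 and arrays of different lines at 0.934 to 0.939 over all probe sets. U87MG replicate 3 stood apart in its spiked poly-A controls, with a mean log2 value of 5.30 against 6.10 to 6.84 on the other 5 arrays. The 3′ minus 5′ difference of actin, a sign of RNA integrity, was 0.35 to 0.68 over the 6 arrays, with the lines overlapping. Without U87MG replicate 3, 8 of the 44 genes were higher and 2 lower, with 853 higher and 793 lower among all 11963 genes. Of 10 glioma and astrocyte markers, NES and SLC1A3 were higher in U87MG and 0 were lower, 20% called against 13.6% of all genes. SLC1A3 was not called without T98G replicate 2 (log2 0.94). CD44, another of the 10, was lower in U87MG on all 8 probe sets (log2 -1.45 to -0.23). Of these, 1 was called, and it was not the brightest. VIM, an intermediate filament of mesenchymal and glial cells, read 14.59 ± 0.05 (SD, n = 3) in T98G and 14.85 ± 0.05 in U87MG. S100B, an astrocyte marker, read 4.13 ± 0.16 and 4.23 ± 0.08, close to 4.03, the upper end of the controls that match no human transcript. Nothing in the labels tells whether replicates came from separate cultures, and the p-values therefore cover array-to-array spread that may be technical.

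The proteases carried the largest difference of the set, and their members went both ways. Of 13 proteases, 3 were higher in U87MG, 1 was lower and 9 were not called. Over all genes 6.56% were higher and 7.01% lower. CTSK encodes cathepsin K, a strong collagenase and elastase best known from osteoclasts. Its log2 values were 6.73, 6.85 and 6.93 on the T98G arrays and 11.54, 11.59 and 11.54 on the U87MG arrays. The lines were far apart and each was tight within itself. The difference was 26.4-fold (log2 4.72, SE 0.10, limma adjusted p = 1.95e-09), and only 31 of the 11963 genes (0.259%) were as far or further up in U87MG. The T98G values lay below 7.63, the median over all probe sets and the limit of the filter on dim ones. Whether they exceed background was not tested. CTSS, the cathepsin S gene that is the nearest protein-coding neighbour of CTSK on one side in the RefSeq table, read 7.75, 7.74 and 7.74 against 8.15, 7.95 and 7.86. Its log2 difference was 0.25 (95% interval 0.01 to 0.49, limma adjusted p = 0.0937), and it was not called.

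CTSL encodes cathepsin L, a broad endopeptidase of lysosomes. It read 10.69, 10.76 and 10.66 in T98G and 12.52, 12.41 and 12.24 in U87MG. Every U87MG array lay above every T98G array, at 3.22-fold (log2 1.69, SE 0.11, limma adjusted p = 1.37e-06). TPP1, a tripeptidyl peptidase lost in a childhood form of neuronal ceroid lipofuscinosis, read 10.22, 10.17 and 10.75 against 11.29, 11.61 and 11.60. The spread within T98G was wide but did not reach U87MG, and the difference was 2.18-fold (SE 0.17 on the log2 scale, limma adjusted p = 0.000469). All 4 TPP1 probe sets were higher in U87MG, from log2 0.63 to 1.12, and 2 of them passed 2-fold.

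CTSH, an aminopeptidase that also acts as an endopeptidase, ran the other way. Its values were 8.86, 8.50 and 9.14 in T98G and 6.17, 6.96 and 6.93 in U87MG. It was 4.43-fold lower in U87MG (log2 -2.15, SE 0.23, limma adjusted p = 4.87e-05), with no overlap between lines and the widest U87MG spread among the called genes. Its U87MG values lay below the limit of 7.63 for dim probe sets. CTSO and CTSF, cysteine cathepsins with less studied roles, were lower by adjusted p alone. CTSO read 8.66, 8.45 and 9.02 against 8.12, 8.05 and 7.57, and CTSF had a log2 difference of -0.54 (-0.83 to -0.25). CTSA, the carboxypeptidase that also shields the enzymes encoded by GLB1 and NEU1, read 12.17, 12.15 and 12.44 against 13.12, 13.03 and 12.96. At log2 0.79 (0.53 to 1.04, limma adjusted p = 0.00037) it was higher in U87MG but short of 2-fold. CTSB, cathepsin B, read 12.62, 12.70 and 12.80 against 13.00, 13.20 and 12.83. All T98G values lay below all U87MG values, but the gap between T98G replicate 3 and U87MG replicate 3 was small, and the difference of 0.30 (0.03 to 0.57) had a limma adjusted p of 0.0716. The 4 CTSB probe sets ran from 0.30 to 0.63, all higher in U87MG. Tested singly by limma, the brightest had an adjusted p of 0.0803, and the others passed at 0.0212, 0.00231 and 0.00755, short of 2-fold.

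CTSD, the aspartic protease cathepsin D, had a difference of -0.12 (-0.49 to 0.25) and overlapping arrays. LGMN, the asparaginyl endopeptidase that processes several cathepsins, had 0.01 (-0.30 to 0.32), and CTSC, which activates serine proteases of immune cells, had 0.07 (-0.27 to 0.41). For these 3 genes a difference of 2-fold lies outside the interval. CTSZ, a carboxypeptidase, depended on the probe set. The one with the higher mean gave -0.14 and the other -1.63, which was called lower by limma (adjusted p = 0.000143 over probe sets singly).

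Both cystatin genes differed by adjusted p and in opposite directions, neither reaching 2-fold. CSTB, the cytosolic inhibitor of cathepsins B, H and L, read 12.93, 13.00 and 12.94 in T98G and 13.89, 13.84 and 13.91 in U87MG. The values within each line were close together, and U87MG was 1.90-fold higher (log2 0.93, 0.72 to 1.14, limma adjusted p = 3.35e-05). CST3, the secreted cystatin C, had a log2 difference of -0.53 (-0.79 to -0.26, limma adjusted p = 0.00518), with all U87MG arrays below all T98G arrays.

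Of 11 glycosidases measured, 0 were higher, 2 were lower (7.01% of all genes) and 9 were not called by limma. Before adjustment 8 of the 11 had a p under 0.05, against 47.8% of all genes. By adjusted p alone 1 was higher and 5 were lower, against 19.7% and 21.7% of all genes, and the median difference was -0.15 against -0.01 over all genes. GAA, acid alpha-glucosidase, breaks down glycogen in lysosomes and is deficient in Pompe disease. It read 9.30, 9.65 and 9.49 in T98G and 7.62, 7.60 and 7.93 in U87MG. It was 3.40-fold lower in U87MG (log2 -1.76, SE 0.13, limma adjusted p = 4.76e-06), with a wide gap between the lines. FUCA1, the alpha-fucosidase of lysosomes, read 9.07, 8.59 and 9.20 against 8.16, 7.86 and 7.52. The arrays did not overlap, and the difference was 2.15-fold (log2 -1.11, SE 0.19, limma adjusted p = 0.00127). The call of FUCA1 sat at the 2-fold limit, with log2 -0.98 without T98G replicate 3 and -0.94 without U87MG replicate 3.

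Other glycosidases lower by adjusted p alone were GLA, GUSB and HEXA. GLA, the alpha-galactosidase deficient in Fabry disease, read 11.72, 11.91 and 11.84 against 11.10, 11.33 and 11.19, a log2 difference of -0.61 (-0.86 to -0.37). GUSB, beta-glucuronidase, had -0.51 (-0.82 to -0.19). HEXA, the alpha subunit of hexosaminidase A, had -0.40 (-0.63 to -0.16) on its brighter probe set and 0.06 on the other. MANBA, beta-mannosidase, was the exception in direction. It read 8.29, 7.96 and 8.55 in T98G and 9.17, 9.22 and 9.16 in U87MG, a 1.88-fold difference (limma adjusted p = 0.000683) that passed 2-fold without T98G replicate 3 (log2 1.05). The other 5 glycosidases (IDUA, MAN2B1, NAGLU, NEU1 and GALC) had adjusted p above 0.05, with differences from -0.15 for NEU1, a sialidase, to 0.40 for IDUA. GALC, the galactosylceramidase of myelin turnover, read 4.90 ± 0.13 (SD, n = 3) and 4.89 ± 0.16, within 1 log2 unit of the unmatched controls.

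Of the 4 sulfatases 1 was called, against 13.6% of all genes. IDS, iduronate 2-sulfatase, removes sulfate from heparan and dermatan sulfate and is encoded on the X chromosome. It read 10.45, 10.39 and 10.53 in T98G and 11.9, 12.01 and 11.95 in U87MG, a 2.82-fold difference (log2 1.5, SE 0.10, limma adjusted p = 1.69e-06). Of its 9 probe sets 8 were higher in U87MG and 3 were called, over a range of log2 -0.23 to 1.5. ARSA, which desulfates the myelin lipid sulfatide, read 7.61, 8.06 and 8.0 against 6.97, 7.08 and 7.33. It was lower by adjusted p alone, at log2 -0.76 (-1.10 to -0.43). SGSH, a heparan sulfatase, had -0.35 (-0.63 to -0.06, limma adjusted p = 0.0513), and ARSB, which acts on dermatan sulfate, had -0.01 (-0.30 to 0.28).

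**Figure D2:**
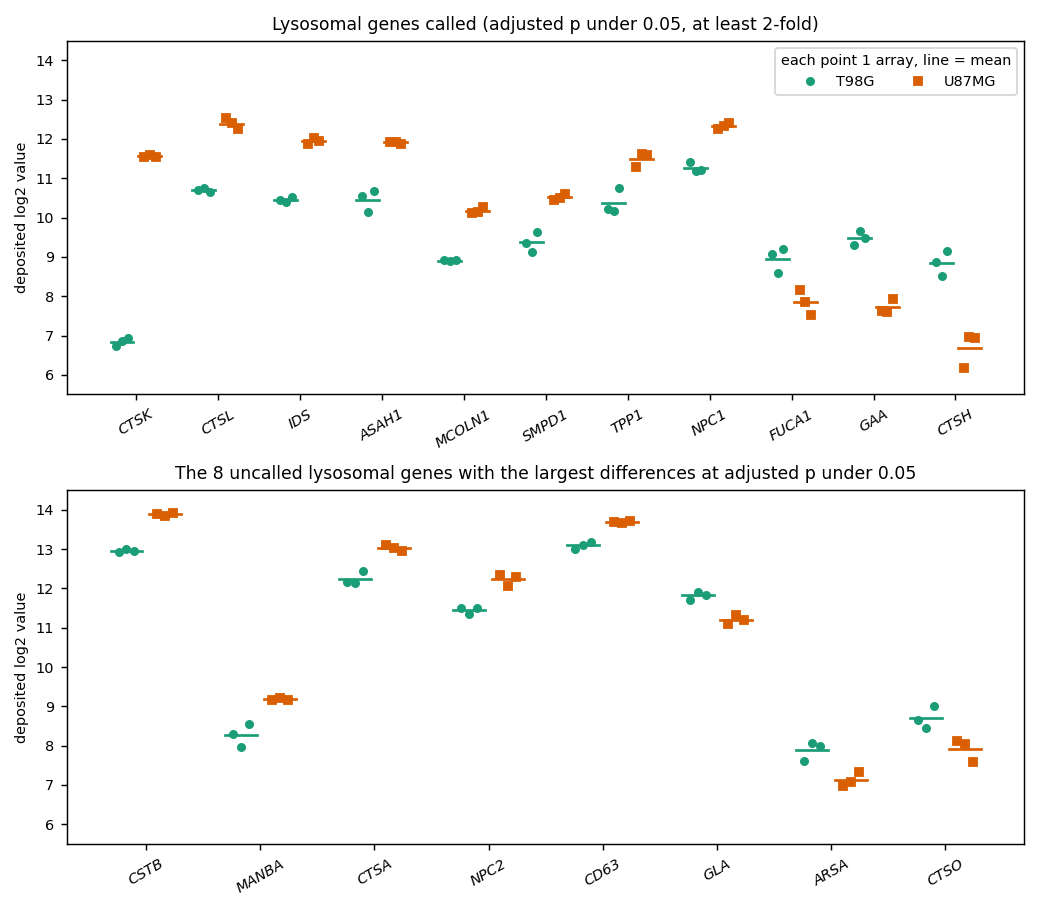
Deposited log2 values on each of the 6 arrays (points) with the mean of each line (bars), for the 11 called lysosomal genes and for the 8 uncalled genes with the largest differences at an adjusted p under 0.05. In all 19 genes the 3 T98G and 3 U87MG values do not overlap, and CTSK shows the widest gap.

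Of 6 lipid hydrolases and their helpers, 2 were higher in U87MG (6.56% of all genes), 0 were lower and 4 were not called by limma. Before adjustment 4 of the 6 had a p under 0.05, against 47.8% of all genes. By adjusted p alone 4 were higher and 0 lower, against 19.7% and 21.7%, and the median difference was 0.67. ARSA, GLA and HEXA, counted above by the bond they cleave, also act on sphingolipids and were lower by adjusted p alone. ASAH1, acid ceramidase, cleaves ceramide to sphingosine and a fatty acid. It read 10.54, 10.15 and 10.68 in T98G and 11.94, 11.93 and 11.86 in U87MG. It was 2.74-fold higher (log2 1.45, SE 0.14, limma adjusted p = 2.41e-05), with tight U87MG values. SMPD1, acid sphingomyelinase, makes ceramide from sphingomyelin, the step before acid ceramidase. It read 9.34, 9.13 and 9.64 against 10.45, 10.50 and 10.59, a 2.21-fold difference (log2 1.14, SE 0.14, limma adjusted p = 0.000111).

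PSAP, the precursor of the saposins that present sphingolipids to these hydrolases, read 12.40, 12.46 and 12.56 against 13.04, 13.15 and 12.95. Its 2 probe sets gave log2 0.57 and 0.59, past the adjusted p but short of 2-fold. NPC2, a small protein that carries cholesterol inside the lysosome, read 11.51, 11.35 and 11.50 against 12.33, 12.05 and 12.30. The difference was 0.78 (0.52 to 1.03, limma adjusted p = 0.000391). LIPA, the acid lipase for cholesteryl esters and triglycerides, had 0.03 (-0.32 to 0.38), and PPT1, a thioesterase that removes palmitate from proteins, had -0.19 (-0.45 to 0.07). Neither passed the test. ACP2, the lysosomal acid phosphatase, had -0.20 (-0.47 to 0.07).

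Of 6 membrane proteins, 2 were higher in U87MG (6.56% of all genes), 0 were lower and 4 were not called by limma. Before adjustment 5 of the 6 had a p under 0.05, against 47.8% of all genes. By adjusted p alone 5 were higher, against 19.7%, and the median difference was 0.52. The 24 other lysosomal membrane proteins described further on had 4 called each way and a median of -0.08. MCOLN1 encodes TRPML1, the channel that releases calcium from lysosomes. It read 8.92, 8.89 and 8.91 in T98G and 10.11, 10.13 and 10.27 in U87MG, a 2.40-fold difference (log2 1.26, SE 0.10, limma adjusted p = 5.37e-06). The T98G arrays lay within 0.1 of each other. NPC1, which passes cholesterol from NPC2 through the lysosomal membrane, read 11.40, 11.20 and 11.21 against 12.24, 12.33 and 12.39. It was 2.08-fold higher (log2 1.05, SE 0.10, limma adjusted p = 3.17e-05).

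CD63, a tetraspanin of late endosomes and exosomes, read 13.00, 13.10 and 13.18 against 13.70, 13.68 and 13.72, at log2 0.60 (0.38 to 0.82). LAMP1, the main glycoprotein of the lysosomal membrane, read 12.95, 12.88 and 12.99 against 13.25, 13.32 and 13.17. The lines were apart by little, at log2 0.31 (0.09 to 0.53, limma adjusted p = 0.0291). The other 3 LAMP1 probe sets gave more, up to 0.93. LAMP2, needed for fusion with autophagosomes, had 0.43 (0.20 to 0.66) and up to 0.76 on its other probe sets. CLN3, a membrane protein lost in juvenile Batten disease, had 0.01 (-0.35 to 0.38).

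**Figure D3:**
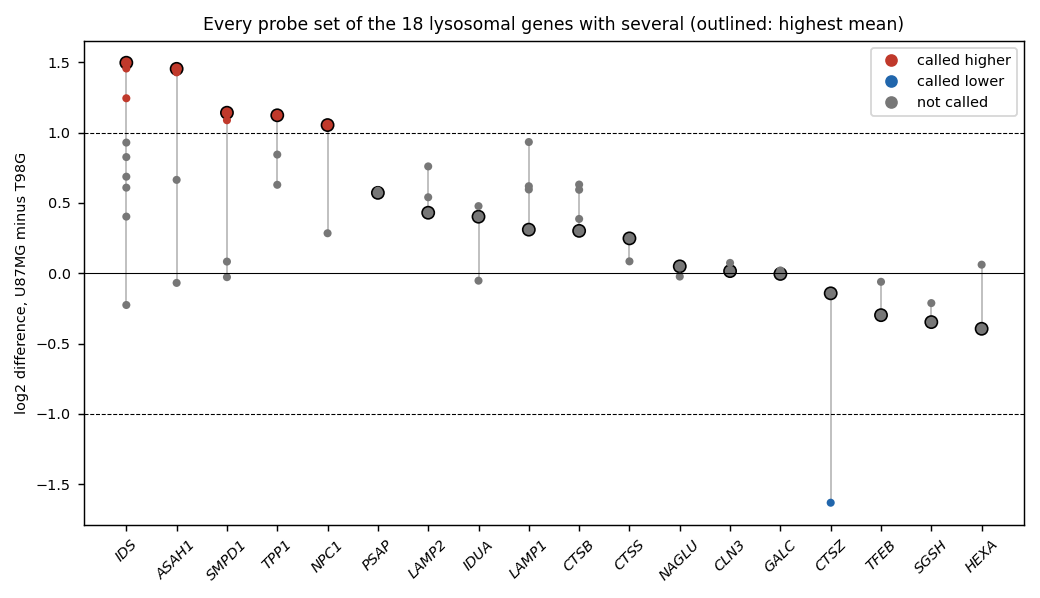
Log2 differences (U87MG minus T98G) of every probe set of the 18 lysosomal genes with several, the probe set with the highest mean outlined in black. For IDS, ASAH1, SMPD1, TPP1 and NPC1 the outlined probe set gives the largest value, and in CTSZ the other probe set alone passes 2-fold.

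Several of these calls rested on 1 choice of probe set. Of the 11 called genes, 5 had several probe sets, and in 0 of these was every probe set called, though none had a probe set called the opposite way. ASAH1 had 3 of 4 probe sets higher and 2 called, from log2 -0.07 to 1.45. SMPD1 had 3 of 4 higher and 2 called, from -0.03 to 1.14. NPC1 had 1.05 and 0.28. With a gene's probe sets averaged, TPP1, IDS, ASAH1, SMPD1 and NPC1 fell short of 2-fold, at log2 0.93, 0.82, 0.87, 0.57 and 0.67. That left 3 of the 44 genes higher (CTSK, CTSL and MCOLN1, each with 1 probe set) and the same 3 lower. Over all genes, averaging gave 729 higher and 764 lower, against 785 and 839 in the main comparison. The 25% called beside 13.6% of all genes therefore depended on the choice of probe set. CTSK, CTSL, CTSH and MCOLN1 were each measured by a single probe set whose identifier ends in _s_at, a class that can match several transcripts, and no second probe set was available to set beside it.

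The 2 called genes with the CLEAR core in their windows went in opposite directions. GAA was 3.40-fold lower in U87MG and MCOLN1 2.40-fold higher, and both upstream windows shown above carry the site more than once. CTSA and LAMP1 were higher by adjusted p alone and CLN3 was not called. The 5 genes with the site had a median difference of 0.31, and the 25 measured genes with a window that lacks it had -0.01, of which 5 were higher and 2 lower. For the shorter CACGTG the medians were 0.0032 in the 10 holders and 0.011 in the others. For the extended form they were -0.25 in its 2 holders, GAA and MCOLN1, and 0.0048 in the others. The medians thus changed order with the letters searched. TFEB itself read 7.66, 7.42 and 7.90 in T98G and 7.41, 7.27 and 7.42 in U87MG. The difference of -0.30 had a limma adjusted p of 0.104, and the second probe set gave -0.06.

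Other genes of the pathway were taken from lists of relatives and partners of the set. Of 15 measured genes for the relatives of TFEB and the platform that holds the kinase complex mTORC1 on lysosomes, 2 were higher, 1 was lower and 12 were not called. That was 20% called, against 13.6% of all genes. RRAGC and RRAGD, GTPases that recruit mTORC1 and bind TFEB, were 3.08-fold and 2.90-fold higher in U87MG. RRAGC read 10.15, 10.10 and 10.20 against 11.98, 11.64 and 11.71, and RRAGD read 6.23, 6.26 and 6.43 against 7.73, 7.82 and 7.98. MITF, a relative of TFEB that drives pigment cell genes, was 2.77-fold lower (9.88, 9.20 and 9.27 against 8.39, 7.93 and 7.63). TFE3, another relative, picked out after its values were seen, was at log2 0.99 (0.75 to 1.23), just under 2-fold, and passed it under 4 of the alternatives. The factors of this family thus differed in sign, with TFEB not called.

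**Figure D4:**
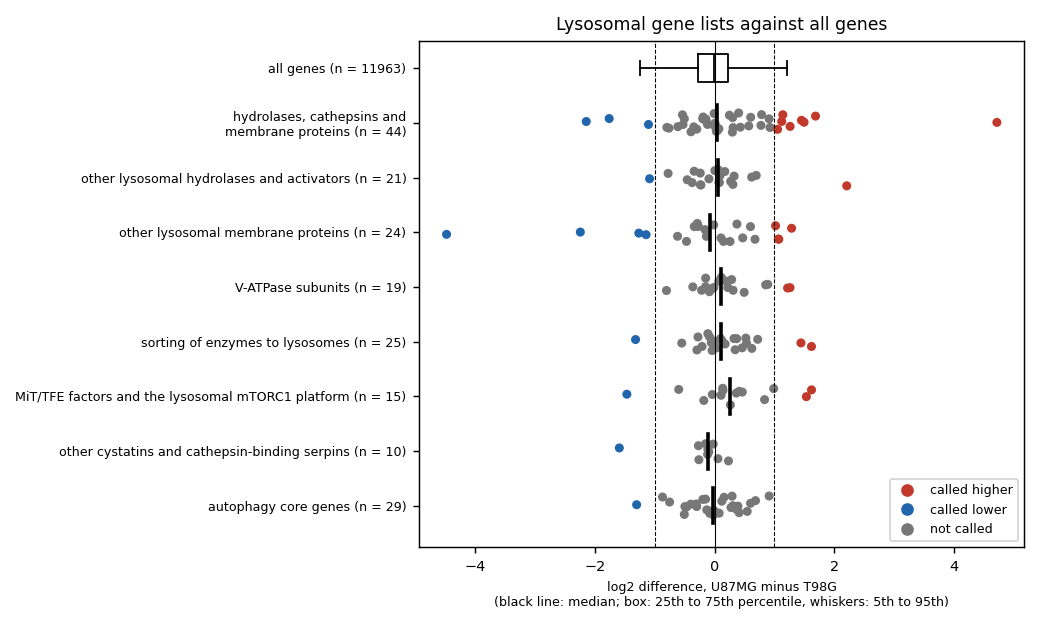
Log2 differences (U87MG minus T98G) of the 44 lysosomal genes and of 7 lists of related genes, each point a gene and each black line a median, beside a box plot of all 11963 genes. Medians of the lists lie between -0.12 and 0.26, and the points furthest out are CTSK at 4.72 and LAPTM5 at -4.48.

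Of 24 other lysosomal membrane proteins, 4 were higher, 4 were lower and 16 were not called. That was 33.3% called, against 13.6% of all genes. LAPTM5, a lysosomal protein best known from blood cells, was 22.4-fold lower in U87MG, with 11.36, 10.94 and 11.08 in T98G against 6.34, 6.55 and 7.03. Both LAPTM5 probe sets were called, at log2 -4.48 and -3.95. Of 10 macrophage and microglia markers, CSF1R was called higher in U87MG (2.02-fold) and 0 were called lower, and the mean over the 10 was 5.45 to 5.53 on T98G arrays and 5.54 to 5.75 on U87MG arrays. The call of CSF1R was lost without T98G replicate 1 or 3 or U87MG replicate 2 or 3 (log2 0.998, 0.976, 0.988 and 0.961). PTPRC, which marks nearly all white blood cells, read 4.33 ± 0.12 in T98G and 4.55 ± 0.36 in U87MG, near the unmatched controls. MCOLN3, a relative of MCOLN1, was 4.74-fold lower, with 7.57, 7.48 and 7.68 in T98G against 4.69, 4.87 and 6.42. U87MG replicate 3 stood apart from the other U87MG arrays in this gene, and without it the difference was log2 -2.79. SIDT2, a nucleic acid transporter of lysosomes, was 2.41-fold lower on 1 of 2 probe sets. OSTM1, the partner of a lysosomal chloride transporter, SCARB2, the receptor that delivers glucocerebrosidase, and TPCN1, a cation channel of endosomes and lysosomes, were 2.44-fold, 2.10-fold and 2.09-fold higher. The call of SCARB2 was lost without U87MG replicate 1 (log2 0.98) and that of TPCN1 without U87MG replicate 3 (0.97).

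Of 21 other hydrolases and activators, 1 was higher, 1 was lower and 19 were not called. That was 9.52% called, against 13.6% of all genes. SMPDL3A, a phosphodiesterase related to SMPD1, read 6.49, 6.26 and 6.61 in T98G and 8.57, 8.95 and 8.47 in U87MG, a 4.63-fold difference. PRCP, a carboxypeptidase, was 2.12-fold lower. Of 19 subunits of the V-ATPase, the proton pump that acidifies lysosomes, 2 were higher, 0 were lower and 17 were not called by limma. That was 10.5% called, against 13.6% of all genes, and 9 of the 19 had an unadjusted p under 0.05, about the 47.8% of all genes. By adjusted p alone 7 were higher and 1 was lower, against 19.7% and 21.7% of all genes. The 2 were ATP6V1D (2.40-fold) and ATP6V0E2 (2.33-fold). Of 25 genes that sort enzymes to lysosomes, AP1S2 and AP1S1, small subunits of the AP-1 coat adaptor, were 3.07-fold and 2.72-fold higher. NAGPA, which uncovers the mannose 6-phosphate tag on lysosomal enzymes, was 2.50-fold lower, and 22 were not called. This list had 12% called, against 13.6% of all genes. Among 10 other cystatins and cathepsin-binding serpins, CSTA, a cytosolic inhibitor of cysteine cathepsins, was 3.02-fold lower in U87MG (7.53, 7.65 and 8.47 against 6.50, 6.55 and 5.82), the opposite sign to CSTB. Of 29 autophagy genes, GABARAPL1, which coats autophagosomes, was 2.47-fold lower, 0 were higher by limma and 18 had an unadjusted p under 0.05, against 47.8% of all genes. With averaged probe sets 2 were higher, and 1 was with the second probe set, without multiply matching probe sets or without U87MG replicate 3. Single probe sets of ATG5 and OPTN were called higher, at log2 2.19 and 1.21, where the brightest ones were not. Over the 143 genes of these 7 lists, 11 were higher and 9 lower. The 14% called was close to the 13.6% of all genes, and the 44 genes had 25%, all on the brightest probe sets. The share differed by list, from 3.45% of the autophagy genes to 33.3% of the other lysosomal membrane proteins. A share as high as that of the 44 genes was therefore not particular to them.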

How the data were processed

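The deposited table holds log2 values per probe set for 6 arrays. Per the submitters' processing notes the tools included RMA and limma, without versions or roles. RMA equalises intensities between arrays, so a difference in total RNA can be hidden and differences of dim transcripts compressed. The number of arrays limits the precision (median residual SD 0.146). Gene names came from GEO's annotation of the platform (19064 of 22277 with 1 gene), with symbols updated by Entrez identifier through the RefSeq table of GRCh38.p14 (19052 matched). The lines were compared by limma 3.58.1 in R 4.3.3 (lmFit, eBayes, two-sided) with Benjamini-Hochberg adjustment over 11963 genes. The members and lists were chosen with earlier results of these data known. Values per array are given for called members, the 8 uncalled members with the largest differences at adjusted p under 0.05, the 6 with the highest means and a few others, and up to 3 called genes per direction are named from each list. TFEB, CTSS, TFE3 and the marker genes were named outside that rule. On simulated data for U87MG against T98G over 11963 genes, a shift of log2 1.5 was called in 95 of 100 genes and a shift of 3 in 100 of 100, with 0 false calls. No shift near the 2-fold limit was simulated, and unshifted genes could hardly reach 2-fold, so calls near the limit were not covered. Alternatives covered thresholds, probe set choice, a filter on dim probe sets, normalization, variance model, a replicate block and leaving out each array. All 6 value columns were used.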

Additional observations from a re-analysis of the deposited data

How the results depend on the processing

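By adjusted p alone, with no minimum fold, 16 lysosomal genes were higher and 10 lower in U87MG, and 2351 and 2591 genes overall. With probe sets averaged within a gene 3 were higher and 3 lower, with 729 higher and 764 lower among all genes. Without multiply matching probe sets 12 of the 44 had no value, CTSK, CTSL, CTSH and MCOLN1 among them, and 1 was higher and 2 lower, with 543 genes higher and 555 lower overall. There IDS (log2 0.69), ASAH1 (0.66) and TPP1 (0.63) lost their calls, and SMPD1 had -0.028, the 1 called gene to change sign. With the second probe set 6 were higher and 4 lower, TPP1 (0.84) and NPC1 (0.28) lost and CTSZ (-1.63) gained. Among all genes 729 were then higher and 781 lower. Against a 1.5-fold difference (limma's treat) 9 were higher and 2 lower, CSTB gained and FUCA1 lost, with 791 higher and 848 lower among all genes. Leaving out each array gave 8 to 9 higher and 2 to 3 lower lysosomal genes, a median difference of -0.00307 to 0.122, and 763 to 853 genes higher and 793 to 890 lower overall. Some uncalled genes changed sign, most of them near 0 in the main comparison. HEXA and IDUA were not near 0 there, at log2 -0.40 and 0.40. HEXA had 0.061 and NAGLU -0.024 with the second probe set and without multiply matching ones, and IDUA -0.053 with the second. GALC had 0.00716 with averaged probe sets, 0.020 with the second and without multiply matching ones, and 0.015 with median centring. ARSB had 0.012 with median centring and 0.022 with repeated quantile normalization. Over the arrays left out, CTSC ran from -0.020 to 0.23, CTSD from -0.32 to 0.00598, LGMN from -0.10 to 0.11, GALC from -0.074 to 0.081, NAGLU from -0.073 to 0.16, ARSB from -0.10 to 0.12, LIPA from -0.10 to 0.17 and CLN3 from -0.15 to 0.17. The cause was not tested. Same-numbered arrays deviated together weakly (r = 0.154, 0.0680 and 0.0448) and U87MG replicate 3 correlated best with T98G replicate 2 (0.0557), so the numbers were not taken as pairs. With the replicate number as a block 8 lysosomal genes were higher and 3 lower, and 786 and 840 genes overall. Median centring, quantile normalization, the variance model and the filter on dim probe sets, which removed CTSZ, GALC and ARSB, also gave 8 and 3. The filter gave 661 higher and 700 lower among the genes it kept. The others gave 785 to 815 higher and 808 to 839 lower among all genes. Signals near the unmatched controls, as for GALC, limit what can be seen of dim genes.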

Other observations

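The probe set listed for both GLB1, beta-galactosidase, and TMPPE read 10.75, 10.69 and 10.85 in T98G and 11.02, 11.02 and 10.90 in U87MG, a log2 difference of 0.22 that cannot be assigned to either gene.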
